A study of Mus musculus with 18 samples.

Results

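Intergenic long noncoding RNA genes (lincRNA genes) lie outside protein-coding genes and carry no annotated reading frame. The genes described here were taken from the table of read counts by their biotype in the GENCODE M21 annotation of the mouse genome (build GRCm38, also called mm10). A gene was kept if it was autosomal, had biotype lincRNA and had 10 or more counts in at least 2 of the 18 libraries. Gm26917, Neat1, Malat1, Meg3, Rian, Mirg, H19, Gas5 and the Snhg genes were left out by the same rule, and 11 of these had enough reads to pass it. The rule kept 1013 of the 54446 genes in the table, out of 4890 autosomal and 5535 annotated lincRNA genes in all, while 3866 fell below the count limit. Just inside the limit lay 74 genes whose second-highest count was 10, with a median of 60.5 reads over all libraries together. Just outside lay 61 genes whose second-highest count was 9, with a median of 59.

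The libraries hold nuclear RNA of C57BL/6 mouse embryonic stem cells grown with LIF and the inhibitors CHIR99021 and PD0325901, depleted of ribosomal RNA and mixed with ERCC spike-in RNA before depletion. In the first experiment, cells labelled Ythdc1 Control or Ythdc1 cKO (conditional knockout) were collected 0, 3 or 6 h after adding actinomycin D, which stops transcription, at 5 µg per ml, with 2 libraries in each of the 6 groups. In the second, cells labelled Mettl3 Control, Mettl3 KO1 and Mettl3 KO2 were collected with 2 libraries in each of the 3 groups. All of these are labelled 0 h and, like the first, actinomycin D at 5 µg per ml. The labels do not say what deletes Ythdc1, whether KO1 and KO2 are single clones, or whether the paired libraries came from separate cultures, so a p-value here reflects how much these libraries vary, and that variation may be technical only.

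METTL3 is the enzyme that places N6-methyladenosine (m6A) on RNA as it is made, often at the sequence GGACT, and YTHDC1 is the nuclear protein that reads the mark. Many lincRNAs stay near the place where they are made and are removed by the nuclear exosome, which the adaptor complexes NEXT and PAXT help to find its targets. In embryonic stem cells some lincRNAs are known as markers or regulators of the naive state, others are host transcripts from which microRNAs or snoRNAs are cut, and others run away from the promoter of a coding gene.

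The sequences of a few of these genes help to read the results. A group of 17 matched the transcript of a protein-coding Zfp gene, which codes for a C2H2 zinc finger protein, over at least 500 bases with at least 80% identity (blastn). These limits were chosen with the values known, and the group is described without a test. Such proteins carry repeated fingers joined by a short linker, and GAGAAACC is one spelling of its residues Glu-Lys-Pro. The next 4 windows of 180 bases come from the last exon of 4 members that stood apart under actinomycin D (below), with GAGAAACC in capitals. They were read from the GENCODE M21 transcripts on build GRCm38, plus strand, at chr17:94875798-94875977, chr17:17264796-17264975, chr17:16972676-16972855 and chr13:62111622-62111801.
Gm20939: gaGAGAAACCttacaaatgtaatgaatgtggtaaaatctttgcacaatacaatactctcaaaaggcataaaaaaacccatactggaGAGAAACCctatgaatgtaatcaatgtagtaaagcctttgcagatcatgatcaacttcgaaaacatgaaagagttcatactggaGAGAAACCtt
Gm5165: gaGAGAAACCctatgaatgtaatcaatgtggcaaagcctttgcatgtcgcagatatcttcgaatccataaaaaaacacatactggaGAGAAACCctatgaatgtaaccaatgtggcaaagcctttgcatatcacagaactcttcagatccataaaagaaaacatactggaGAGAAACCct
BC002059: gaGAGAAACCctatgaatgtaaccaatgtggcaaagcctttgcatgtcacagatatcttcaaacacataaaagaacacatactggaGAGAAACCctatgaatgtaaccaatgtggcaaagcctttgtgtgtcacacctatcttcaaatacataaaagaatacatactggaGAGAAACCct
Gm40977: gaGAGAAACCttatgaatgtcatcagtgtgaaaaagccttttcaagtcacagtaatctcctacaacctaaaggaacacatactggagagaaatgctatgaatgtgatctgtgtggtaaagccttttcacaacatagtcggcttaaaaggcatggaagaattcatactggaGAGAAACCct
The letters recur at the spacing of the finger repeats in the first 3, and the fourth keeps 2 copies in its window. Over its whole transcript, searched on the transcribed strand, Gm20939 holds 23 copies in 3079 bases, Gm5165 14 in 2194, BC002059 13 in 1964 and Gm40977 3 in 886. The letters are not rare by themselves: at least 1 copy was present in 119 of the 1013 members (11.75%) and in 12.36% of protein-coding genes (longest transcript). At least 3 copies were present in 14 members, 11 of which are among the 17 that match a Zfp transcript, in 1.309% of all protein-coding genes and in 44.67% of Zfp coding genes. The best match of Gm20939 was Zfp932, over 1509 bases at 80.05% identity. Gm5165 and BC002059 both matched Zfp97 best, over 2181 bases at 88.4% and over 1628 bases at 81.2%. Gm40977 matched Zfp808 over 828 bases at 82.97%.

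The second set are the mature microRNAs of 2 host transcripts that fell far in the drug, 6720427I07Rik and Mir17hg. They are given 5′ to 3′ from RefSeq (GRCm38.p6), with the seed, bases 2 to 8, in capitals.
mmu-let-7a-5p: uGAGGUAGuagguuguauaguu
mmu-let-7d-5p: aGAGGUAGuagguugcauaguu
mmu-let-7f-5p: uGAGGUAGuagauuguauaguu
mmu-miR-17-5p: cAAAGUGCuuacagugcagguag
mmu-miR-20a-5p: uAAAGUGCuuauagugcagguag
mmu-miR-18a-5p: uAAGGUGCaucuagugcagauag
mmu-miR-19a-3p: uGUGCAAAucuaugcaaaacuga
mmu-miR-92a-3p: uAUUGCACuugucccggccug
The 3 let-7 microRNAs share the seed GAGGUAG and lie within 6720427I07Rik on the minus strand of chromosome 13. Within Mir17hg, on the plus strand of chromosome 14, miR-17-5p and miR-20a-5p share AAAGUGC, miR-19a-3p and miR-19b-3p share GUGCAAA, and miR-18a-5p and miR-92a-3p each have a seed of their own.

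The 18 libraries held 4950973 to 30989044 gene reads and 3932 to 33396 spike-in reads. Both cKO libraries at 3 h stood apart, with the fewest spike-in reads of all (3932 and 5225) at 14170524 and 19208935 gene reads, so any value of theirs scaled to spike-ins moves upwards. At 0 h the counts per gene did not show a deleted part of Ythdc1, which differed by -0.07 ± 0.079 (log2, edgeR adjusted p = 0.557) in cKO. Here and below, the value after ± is the log2 fold change without its sign, divided by the square root of edgeR's F statistic. It is an approximate standard error taken back from the test, not one estimated apart. Those of separate changes need not combine to that of their difference. Over 6 h of actinomycin D, Ythdc1 changed by -1.49 in control and -2.81 in cKO, a difference of -1.31 ± 0.13 (1.255e-09). Nor did the counts show a deleted part of Mettl3, which differed by -0.10 ± 0.077 (0.316) in KO1 and -0.61 ± 0.081 (7.45e-10) in KO2. The groups are therefore called by their labels. The 10 markers of embryonic stem cells were present in every library, with a summed level of 2764 to 4354 CPM (the usual count normalised to library size, with TMM scaling). The 10 markers of fibroblast feeders summed to between 23.63 and 67.66 CPM in the Ythdc1 libraries, with Dcn, Lum or both at 0 in 5 of the 6 groups, and to 237.4 to 586.1 in the Mettl3 libraries. In bulk RNA, fewer cells of a type and less RNA per cell cannot be told apart.

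Most members were little known and weakly expressed. By their symbols, 679 carried a Gm number, 248 a RIKEN clone name and 18 the prefix Platr (pluripotency-associated transcript). Their exons covered a median of 1607 bases against 3499 for protein-coding genes, and 99 members had a single exon. The median GC content was 47.47% against 48.7%. GGACT was present in the longest transcript of 74.43% of members and of 88.34% of coding genes, at a median density per kb of 0.9872 and 1.003. A start within 2000 bases of a coding gene's start and pointing away from it was found for 118 members, and 79 began within 5000 bases downstream of a coding gene on its strand. A small RNA gene lay inside 35 members, and exons of 220 members overlapped an exon of another gene.

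In control cells before the drug, members together took 1.813% of gene reads (SD 0.07239, n = 2), and most of that was a single gene. Gm42418 (chr17:39846958-39848788), whose exons overlap those of AY036118 and CT010467.1, took 1.494% (SD 0.07821), and the origin of its reads was not tested. No read was counted to it in any Mettl3 library. Without Gm42418 the members' share was 0.3235% (SD 0.005643) in control and 0.3766% (SD 0.01267) in cKO at 0 h. The control share was 0.1993% (SD 0.003709) at 3 h and 0.1644% (SD 0.001485) at 6 h. In the libraries labelled cKO it was 0.2488% (SD 0.0009598) at 3 h and 0.2221% (SD 0.0001851) at 6 h. At each time the cKO libraries lay above both control libraries, and in each genotype the share was lower at every later time. In the Mettl3 experiment the share was 0.4587% (SD 0.008312) in control, 0.4164% (SD 0.002206) in KO1 and 0.4107% (SD 0.00179) in KO2, with n = 2 in each group.

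**Figure D1:**
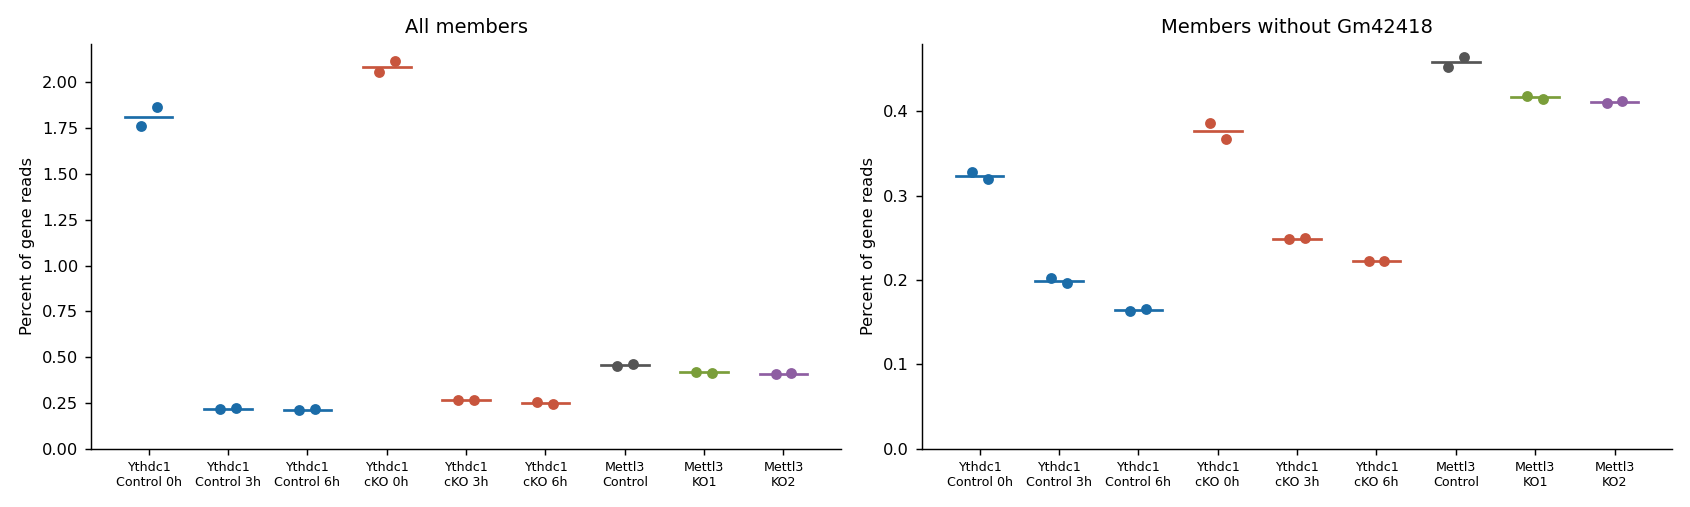
Share of gene reads counted to the lincRNA genes in each of the 18 libraries (points, with the group mean as a line), with all members (left) and without Gm42418 (right), in percent. On the right, the control share goes from 0.3235% at 0 h to 0.1644% at 6 h and the cKO share from 0.3766% to 0.2221%.

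Per length, Lncenc1, a transcript abundant in naive embryonic stem cells, led the members other than Gm42418 in control cells at 0 h, with 102.9 CPM per kb of exon (SD 2.398, n = 2). Bc1 followed at 53.34, AU020206 at 52.11, Epb41l4aos at 49.32, Platr3 at 47.66, C78283 at 47.06 and Platr10 at 26.29 CPM per kb. The SD was 24.01 for Bc1, whose exon spans 168 bases, and 14.45 for Platr3, so the order from Bc1 to C78283 is not fixed by 2 libraries. In Mettl3 control cells the order differed, with Gm42047 first at 170.6 CPM per kb, Bc1 at 95.9, Gm17768 at 43.9, Epb41l4aos at 42.09 and Lncenc1 at 42.02, where the libraries of the last 3 overlapped. The typical member was far lower: the median was 0.2928 CPM per kb in Ythdc1 control cells at 0 h, where 182 members had no read in either library and 32 lay above 10. In Mettl3 control cells the median was 0.6804 and 12 members had no read.

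After a filter on low counts, 509 of the 1013 members could be tested in the Ythdc1 experiment and 877 in the Mettl3 experiment. Members outside these had too few reads for a test. A gene was called when edgeR's quasi-likelihood test gave a Benjamini-Hochberg adjusted p below 0.05 over all genes tested. TMM scaling sets the typical gene to no change, and every fold change is read against it. Scaled to the spike-ins instead, the median of all genes tested moved to -0.355 for cKO at 0 h, -0.46 and -0.884 for control at 3 and 6 h, 1.86 and -0.964 for cKO at 3 and 6 h, 0.169 for KO1 and 0.533 for KO2 on the log2 scale, and the members' split moved with it. No list of members was tested as a set, and the counts below are read only against the share of all genes called.

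**Figure D2:**
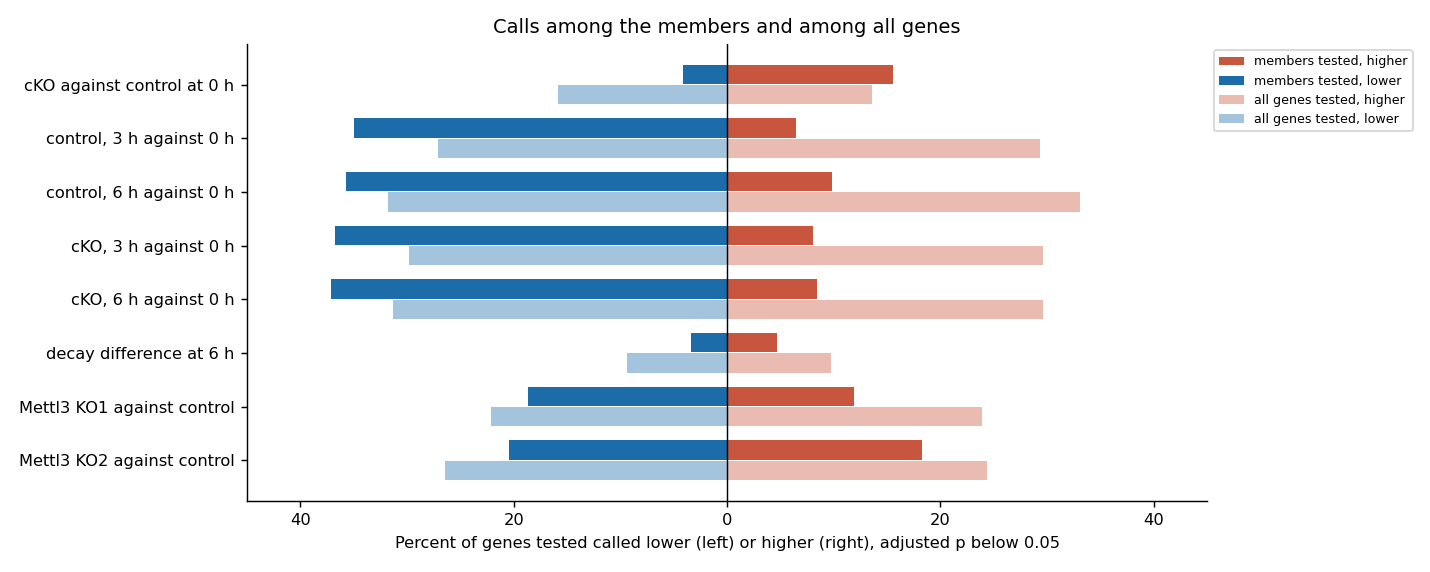
Percent of the genes tested that were called lower (left of 0) or higher (right of 0) in 8 comparisons, for lincRNA genes (dark bars, with 509 tested in the Ythdc1 experiment and 877 in that of Mettl3) and for all genes (light bars, 17900 and 21802 tested). In the 4 comparisons over time, members were called lower more often than higher, while all genes divide about evenly.

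The first question was which lincRNAs differ between cKO and control before transcription is stopped. Of the 509 members tested, 79 were higher (15.52%, against 13.5% of all genes) and 21 lower (4.126%, against 15.8% of all genes). Among the 107 with a mean of at least 50 reads, 34 were higher (31.8%) and 8 lower (7.48%), against 16.4% and 24.3% of the coding genes past the same limit. The median over members was 0.16 on the log2 scale and that over all genes 0.01. With spike-in scaling the split was 45 higher and 75 lower. The higher count was 47 without control replicate 2 at 0 h, and the lower count was 13 without either control library at 0 h and 5 without cKO replicate 1 at 0 h. Markers of the 2-cell-like state, in which a few stem cells resemble the embryo after its first division, summed to 64.15 to 69.69 CPM in control and 162.9 to 167.6 in cKO at 0 h, with 6 of the 7 called higher. The feeder markers summed to 23.63 to 27.03 and 39.4 to 40.44 CPM, and those of stem cells to 3268 to 3325 and 2764 to 2771. Their part in the members' counts was not tested.

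Platr15 (chr2:150704536-150706876, minus strand) and Gm49654, which starts 958 bases downstream of the coding gene Map3k9, both rose. Platr15 had 0.759 and 1.30 CPM in control against 6.19 and 5.58 in cKO, a rise of 2.45 ± 0.28 on the log2 scale (2 libraries a group, edgeR adjusted p = 1.01e-08). Gm49654 had 2.06 and 2.14 CPM against 9.12 and 11.6, a rise of 2.29 ± 0.26 (1.08e-08). In both genes the lowest cKO library was well above the highest control library. The rule that names the largest changes in cKO at 0 h, control at 6 h, KO1 and KO2 requires groups that do not overlap. For genes named by it, here and below, such separation adds no support. Platr28 rose by 1.97 ± 0.34, 4632415L05Rik by 1.61 ± 0.22, Gm33680 by 1.34 ± 0.22, Gm38258 by 1.30 ± 0.17 and E130202H07Rik by 1.23 ± 0.22. Lncpint, a transcript that p53 is known to induce, had 6.07 and 5.27 CPM in control against 12.4 and 11.6 in cKO, a rise of 1.09 ± 0.20 (4.45e-05). Lncenc1 had 334 and 345 CPM in control against 456 and 457 in cKO. Its rise of 0.43 ± 0.053 (4.97e-08) was 0.059 and not called when scaled to spike-ins (adjusted p = 0.448). Pvt1, the neighbour of Myc, rose by 0.41 ± 0.10, and this call was lost with spike-ins (0.039, adjusted p = 0.799) and in a test against a change of 1.2-fold (0.132).

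Fewer members fell. 1110002J07Rik (chr10:66912489-66920258) had 20.5 and 19.6 CPM in control and 10.1 and 10.2 in cKO, a change of -0.98 ± 0.16 (adjusted p = 6.89e-06). No library of one group reached the other, as the naming rule requires. Gm4349, 6717 bases from Arnt, fell by 0.77 ± 0.22 and Platr10 by 0.56 ± 0.12. The other members named by the rule for the largest falls were 2410003I16Rik (-0.83), 2810429I04Rik (-0.61), Gm32885 (-0.38), 1700001L05Rik (-0.30) and Gm53 (-0.30). Each of these 5 lost its call when 1 library was left out: 2410003I16Rik was -0.72 and 2810429I04Rik -0.43 without cKO replicate 1, Gm32885 -0.38 and 1700001L05Rik -0.20 without control replicate 2, and Gm53 -0.25 without either of these. Mir124a-1hg, the host of a microRNA known from neurons, was 0.65 ± 0.17 higher and lost its call without cKO replicate 2 (0.56) and with spike-ins (0.28).

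Gm42047 (chr8:121833247-121841178) rose as well, from 122 and 121 CPM in control to 294 and 242 in cKO, which is 1.14 ± 0.073 on the log2 scale (adjusted p = 8.01e-15). Its transcript has near copies: Gm43549 on chromosome 3, Gm48362 on chromosome 9 and Gm47939 and Gm47761 on chromosome 10 share up to 3209 bases with it or with each other at 98.38% identity or more. Gm47761 rose too, by 2.84 ± 0.54 (7.69e-05). The sources used here do not say how a read that fits several copies was placed or dropped, and the split of reads among these 5 genes is uncertain. In all, 20 members fell into 7 such families of like transcripts. Gm5165 and Gm6712 share 522 bases at 95.4%, and 2900097C17Rik, the mouse Norad gene, shares 2537 bases with Gm7292 at 99.17%.

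Actinomycin D stops new transcription, so a fall in a transcript's share of the nuclear RNA is read here as loss relative to others. In nuclear RNA, decay and leaving the nucleus cannot be told apart. The reading does not cover every change, such as the rise of Platr15 (below). After 3 h in control cells, 33 members were higher (29.3% of all genes) and 178 lower (27.1% of all genes). After 6 h, 50 were higher (33.1% of all genes) and 182 lower (31.7% of all genes), which is 9.823% and 35.76% of the members tested. The median over members was -0.43 at 3 h and -0.56 at 6 h, against 0.07 and 0.03 over all genes. The same lean was present in well-read genes: of the 107 members with a mean of at least 50 reads, 10 were higher and 69 lower at 6 h, while the 10622 coding genes past the same limit had 4574 higher and 3640 lower. Scaled to spike-ins, the members' split at 6 h was 12 and 310. The share of reads that fell on no gene moved with time as well, from 49.721 to 53.541% in the 4 libraries at 0 h, control and cKO, to 18.024 to 24.525% in the 8 at 3 and 6 h, and its part in these values was not tested. The higher counts were the less stable: at 3 h 18 without control replicate 2 at 0 h and 16 without control replicate 2 at 3 h, and at 6 h 32 without control replicate 2 at 0 h.

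Host transcripts of small RNAs were among those lost most. 6720427I07Rik (chr13:48532905-48546500), the host of the 3 let-7 microRNAs printed above, had 31.4 and 29.7 CPM before the drug, then 1.03 and 0.984 after 3 h and finally 0.452 and 0.630. All libraries at 3 and 6 h were far below those at 0 h, and the change at 6 h was -5.77 ± 0.28 (adjusted p = 8.69e-20). Mir17hg (chr14:115042879-115046727), the host of the miR-17 cluster, had 76.7 and 60.5 CPM before the drug, then 3.38 and 4.53 after 3 h and finally 2.94 and 2.07, a change of -4.79 ± 0.21 (1.56e-15). Nearly all of its loss had taken place by 3 h. Of the 28 members that hold a microRNA gene, 20 were tested and 15 were lower and 0 higher at 6 h, with a median of -1.63. Of the 7 that hold a snoRNA or scaRNA gene, 6 were tested and 5 were lower, with a median of -2.27. Beside these, 31.7% of all genes tested were lower and 33.1% higher, and 35.76% and 9.823% of all members tested. Mir124a-1hg fell by 2.53 ± 0.23 and Mir142hg, known from blood cells, by 1.75 ± 0.40.

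Members without a known small RNA also fell far. Gm45250 fell by 4.34 ± 0.36, Gm20045 by 4.31 ± 0.34, Gm5165 by 4.15 ± 0.22, Gm20939 by 3.58 ± 0.21, Gm26624 by 2.98 ± 0.20 and Gm38258 by 2.90 ± 0.27. At the other end, Platr15 rose in CPM from 0.759 and 1.30 before the drug to 12.1 and 13.8 after 3 h and then 17.3 and 16.6, a log2 fold change of 3.96 ± 0.23 (adjusted p = 6.76e-18) that stayed positive under spike-in scaling. Such a rise is not a loss, and its source was not tested. 2010320M18Rik rose by 1.15 ± 0.28 and lost this call with spike-ins (0.23). AU020206 had 163 and 169 CPM before the drug and 181 and 187 after 6 h, a change of 0.15 ± 0.060 that lost its call in most alternative fits and was -0.049 with library size alone and -0.77 with spike-ins. Among names known from other work, Pvt1 fell by 1.11 ± 0.11, Epb41l4aos by 0.94 ± 0.16 and Lncenc1 by 0.98 ± 0.054 at 6 h. Norad (2900097C17Rik) changed by -0.19 ± 0.15 and Lncpint by 0.30 ± 0.21, neither called.

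Members also differed by base composition in how many were lost over 6 h. Those with a GC content below 42% had 1 higher and 62 lower of 89 tested, with a median of -1.59. Those between 42 and 50% had 20 higher and 90 lower of 276 (median -0.55), and those above 50% had 29 higher and 30 lower of 144 (median -0.18). Coding genes followed the same order: 87 higher and 1168 lower of 1654 below 42% GC, and 3853 higher and 1025 lower of 7133 above 50%. Single-exon members had 3 higher and 29 lower of 68 (median -1.02), and members with more exons 47 higher and 153 lower of 441 (median -0.53). The limits of these classes were chosen with the values known, and the classes were not tested against each other. GC content can also bear on how well a fragment is amplified and read, and its part in these values was not tested.

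In the libraries labelled cKO the same times gave 41 members higher (29.6% of all genes) and 187 lower (29.8% of all genes) at 3 h. At 6 h 43 were higher (29.6% of all genes) and 189 lower (31.3% of all genes), with medians of -0.50 and -0.61. The higher count at 6 h was 26 without cKO replicate 1 at 0 h and 23 without cKO replicate 2 at 6 h. Scaled to spike-ins, in which both cKO libraries at 3 h stood apart, the split at 3 h turned to 298 higher and 28 lower, and that at 6 h was 3 and 318. 6720427I07Rik fell by 5.64 ± 0.27 at 6 h and Mir17hg by 3.83 ± 0.19, again with most of the loss before 3 h. Of the 20 tested members that hold a microRNA gene, 15 were lower and 0 higher.

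The difference between the 2 courses was tested directly, as the 6 h change in cKO minus the 6 h change in control. For 24 members it was higher (9.77% of all genes) and for 17 lower (9.35% of all genes). These are 4.715% and 3.340% of the 509 tested, below the share of all genes in both directions. Among the 107 members with a mean of at least 50 reads, 17 were higher (15.9%) and 10 lower (9.35%), near the 15.0% and 12.9% of coding genes past the same limit. The lower count was 9 without control replicate 1 at 0 h and 11 without cKO replicate 2 at 6 h. Spike-in scaling gave 22 and 21, as the typical gene's difference is small on that scale (-0.0871).

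The 4 Zfp-like members whose sequences are printed above had the difference called. Gm20939 (chr17:94864918-94878321) had 43.2 and 42.2 CPM in control before the drug, then 17.4 and 11.7 after 3 h and 4.97 and 2.43 after 6 h. In the cKO libraries it had 47.0 and 39.3 CPM to begin with, then 45.7 and 48.8 after 3 h and 31.8 and 33.3 after 6 h. The genotypes overlapped at 0 h, and at 3 and 6 h every cKO library was above every control library. Its change was -3.58 ± 0.21 in control and -0.40 ± 0.15 in cKO, and the difference was 3.18 ± 0.27 (adjusted p = 7.91e-08). The call of the cKO change (adjusted p = 0.0302) was lost without cKO replicate 1 at 0 h (-0.26), without cKO replicate 1 at 3 h (-0.39) and without either cKO library at 6 h (-0.36 and -0.44), while the difference was called in every setting tried.

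Gm5165 (chr17:17234872-17266063) had 30.7 and 25.1 CPM in control before the drug, then 5.74 and 5.12 after 3 h and 1.36 and 1.71 after 6 h. In cKO it had 37.5 and 29.0 to begin with, then 15.3 in both libraries after 3 h and 11.8 and 10.8 after 6 h. Its levels before the drug overlapped between genotypes and those after it did not, and the difference was 2.56 ± 0.29 (adjusted p = 2.88e-08). BC002059 (chr17:16951539-16974157) had 27.6 and 28.1 CPM in control at 0 h and 4.63 and 4.05 at 6 h, against 30.4 and 24.4 and then 8.77 and 10.5 in cKO, a difference of 1.23 ± 0.24 (0.00017). Gm40977 (chr13:62097748-62112047) had 12 and 9.16 CPM in control at 0 h and 1.81 and 2.70 at 6 h, against 8.36 and 9.27 and then 6.73 and 5.52 in cKO, a difference of 1.61 ± 0.34 (0.000669). For these 3 as well, the difference was called in every setting tried, and at 6 h no library of the 2 genotypes overlapped.

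Of the 17 Zfp-like members, 16 were tested, with a median difference of 0.72. The difference was called higher for 5 and lower for 1, beside 9.77% and 9.35% of all genes tested. The fifth was Gm46430 (0.53 ± 0.19, adjusted p = 0.045), whose call was lost with spike-ins (0.48), with DESeq2 and in 8 fits that left out 1 library (0.42 to 0.55). The lower one was Gm46378 (-4.39 ± 1.3), which rests on 0.204 and 0 CPM in cKO at 6 h and lost its call without cKO replicate 2 at 6 h (-2.47). Before the drug none of the 16 was called in either direction between cKO and control. Zfp protein-coding genes were read in the same way. Of 364 tested, 92 had a higher and 8 a lower difference (median 0.37), while at 0 h 53 were higher and 32 lower. They also fell over 6 h, with 15 higher and 283 lower in control and 14 higher and 268 lower in cKO. GC content moves with this: the 4 Zfp-like members have 37.1 to 40.1% GC, members below 42% GC had 10 higher and 1 lower difference of 89, and coding genes below 42% GC had 524 higher and 23 lower. Its part in the result was not tested.

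**Figure D3:**
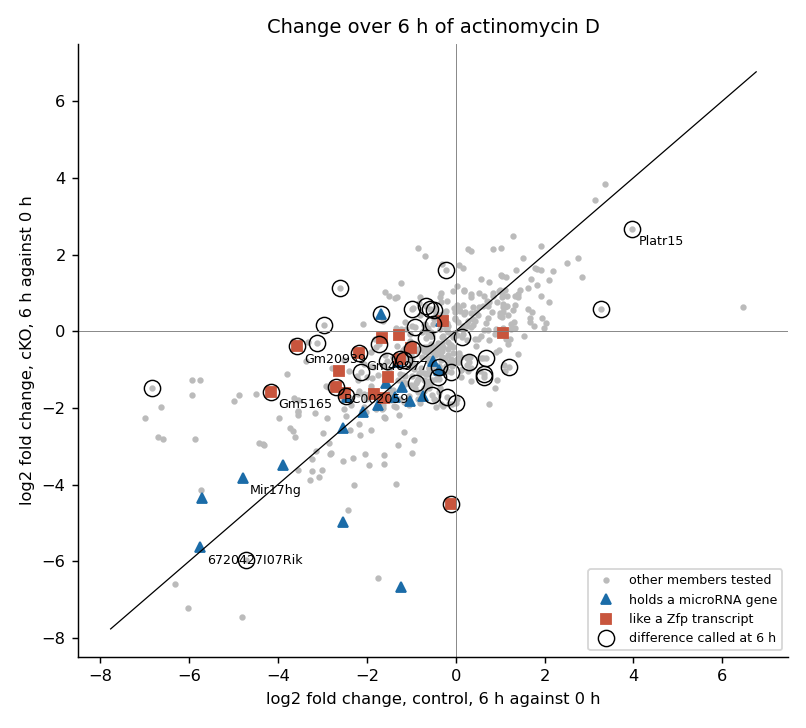
Log2 fold change after 6 h of actinomycin D in control (x axis) and in cKO libraries (y axis) for the 509 lincRNA genes tested, with Zfp-like members as squares, members that hold a microRNA gene as triangles and called differences circled. Points above the diagonal line fell less, or rose more, in cKO, such as Gm20939 at -3.58 and -0.40, while 6720427I07Rik lies near it at -5.77 and -5.64.

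Other members with a called difference were among the most abundant. Lncenc1 had 334 and 345 CPM in control before the drug, then 261 and 250 after 3 h and 168 and 176 after 6 h. In cKO it had 456 and 457 to begin with, then 384 and 385 after 3 h and 333 and 329 after 6 h. At every time both cKO libraries were above both control libraries, and the difference was 0.52 ± 0.076 (adjusted p = 3.01e-06). C78283 had a difference of 0.77 ± 0.17 (0.000703), Gm32885 of 0.71 ± 0.19 (0.00744), Platr3 of 1.03 ± 0.22 (0.000668) and Platr27 of 1.17 ± 0.28 (0.00238), and all 4 kept it in every setting. For the 2 host transcripts whose microRNAs are printed above the difference was not called, at 0.12 ± 0.59 (adjusted p = 0.918) for 6720427I07Rik and 0.96 ± 0.35 (0.0569) for Mir17hg. Among all hosts it was called higher for 1 of 20 that hold a microRNA gene (Smkr-ps, 2.14) and for 2 of 6 that hold a snoRNA or scaRNA gene (9430037G07Rik, 3.13, and 2700038G22Rik, 0.78), and lower for none. These 3 are named after their values were seen. Over all genes tested the difference was higher for 9.77% and lower for 9.35%.

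The opposite direction, a larger loss or smaller rise in cKO, was called in every setting for 5031425E22Rik, which starts 172 bases from Kmt2e and points away from it, and for Gm53, whose nearest coding gene is Hoxb9. Their differences were -0.80 ± 0.18 (adjusted p = 0.00122) and -0.56 ± 0.14 (0.00259). Lncpint was level in control, with 6.07 and 5.27 CPM before the drug and 5.87 and 7.83 after 6 h, and fell in cKO from 12.4 and 11.6 to 6.32 and 7.08. The genotypes differed at 0 h and overlapped at 6 h, and the difference was -1.11 ± 0.29 (0.00529), not called without control replicate 2 at 6 h (-0.86). Platr15 had 38.3 and 38.7 CPM in cKO after 3 h and then 40.0 and 35.9, above every control library, but because it began higher its rise was smaller (2.67 ± 0.15), and the difference of -1.30 ± 0.32 (0.00328) was not called without control replicate 1 at 0 h (-1.01).

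**Figure D4:**
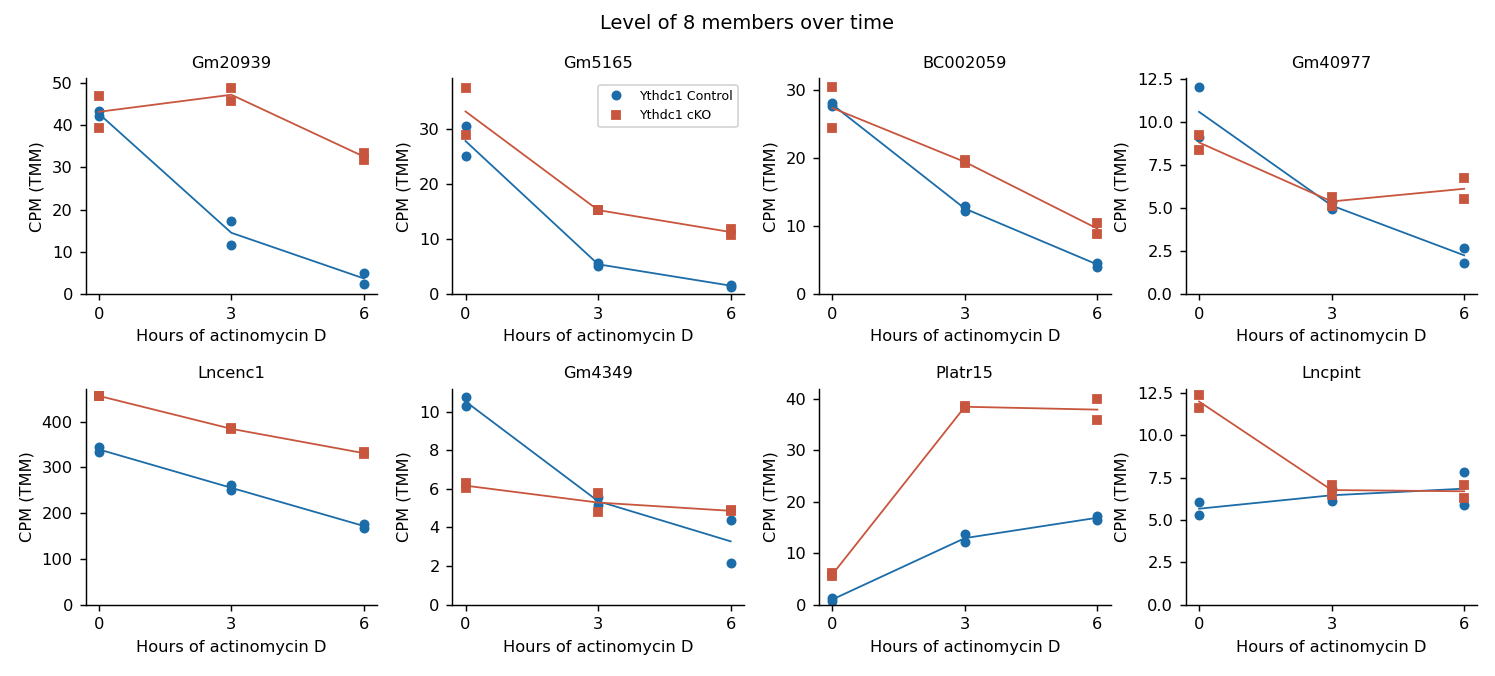
Level of 8 lincRNA genes in CPM (TMM-scaled, y axis) against hours of actinomycin D (x axis), with 1 point for each library and a line through the group means, circles for control and squares for cKO. Gm20939 stays between 31.8 and 48.8 CPM in all cKO libraries and goes from 43.2 to 2.43 CPM in control, while Lncpint differs at 0 h and overlaps at 6 h.

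The second experiment asked how lincRNAs differ in cells labelled as Mettl3 knockouts without a time course. KO1 and KO2 share the same 2 control libraries, so their values are given side by side and no overlap between their calls is counted. Of the 877 members tested, 104 were higher (23.9% of all genes) and 164 lower (22.2% of all genes) in KO1, and 160 were higher (24.4% of all genes) and 179 lower (26.4% of all genes) in KO2. As shares of the members tested these are 11.86% and 18.70% in KO1 and 18.24% and 20.41% in KO2, each below the share of all genes. Among the 284 members with a mean of at least 50 reads 21.5% were higher and 25.7% lower in KO1, and 23.2% and 32.4% in KO2. Coding genes past the same limit had 36.6% and 26.2% in KO1, and 31.8% and 35.1% in KO2. With spike-in scaling the split was 145 and 122 in KO1, and 332 and 68 in KO2. Whole chromosomes differed as well: the median coding gene of chromosome 8 was at -0.51 in KO1 and -0.44 in KO2, that of chromosome 6 at -0.42 and that of chromosome 14 at -0.25 in KO2. The feeder markers summed to 242.6 to 263.3 CPM in control, 237.4 to 246.4 in KO1 and 578.4 to 586.1 in KO2. The 2-cell-like markers summed to 32.55 to 34.26, 11.11 to 11.16 and 20.57 to 22.38 CPM in the same order, those of mesoderm and streak to 11.98 to 14, 29 to 29.39 and 14.7 to 15.44, and those of trophoblast to 62.48 to 70.02, 36.23 to 38.21 and 51.22 to 53.18. Endoderm markers summed to 8.974 to 9.618, 4.689 to 5.148 and 2.833 to 3.003, and neuroectoderm markers to 155.6 to 162.8, 124.8 to 133.5 and 138 to 146.2. None of the markers in these 6 lists was at 0 in both libraries of a group, and their part in the members' values was not tested.

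Mir124a-1hg (chr14:64587331-64593961) was among the falls in both lines. It had 84.0 and 86.1 CPM in control, 25.3 and 28.5 in KO1 and 5.05 and 4.88 in KO2, so no group reached another. The log2 fold change was -1.67 ± 0.068 (adjusted p = 1.67e-35) in KO1 and -4.10 ± 0.089 (7.93e-54) in KO2. Mirt1, named for its induction after myocardial infarction, had 8.16 and 7.02 CPM in control, 1.86 and 1.35 in KO1 and 1.31 and 2.15 in KO2, a fall of 2.22 ± 0.23 and 2.14 ± 0.24. Lockd, which starts 3579 bases downstream of the cell cycle inhibitor gene Cdkn1b, had 10.5 and 10.3 CPM, 2.35 and 2.08, and 3.20 and 3.27, a fall of 2.22 ± 0.19 and 1.69 ± 0.18. Each KO library of these genes was below both control libraries. Gm47900 fell by 2.25 and 1.60, Gm43597 by 1.92 and 1.72, Bvht, known from the heart lineage, by 1.38 and 1.32, and Lncpint by 1.78 and 0.98.

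A pair of members lies in the imprinted Meg3 to Mirg region of chromosome 12, whose main transcripts the rule left out. Gm26945 (chr12:109640341-109642351), inside the span of Rian and around a snoRNA gene, had 31.8 and 31.8 CPM in control, 4.30 and 3.99 in KO1 and 15.8 and 18.3 in KO2. B830012L14Rik (chr12:109695586-109702587), downstream of Rian, had 10.6 and 11.7 CPM, 1.5 and 1.87, and 4.97 and 5.74. Both were lowest in KO1 and intermediate in KO2 with no overlap between the 3 groups. Gm26945 fell by 2.93 ± 0.12 and 0.90 ± 0.096, and B830012L14Rik by 2.75 ± 0.19 and 1.06 ± 0.16 (adjusted p of at most 3.285e-08). In the time course both were among the members lost early, with changes at 6 h in control of -3.56 ± 0.43 and -3.54 ± 0.49.

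Among the rises, Lncenc1 had 133 and 144 CPM in control, 326 and 349 in KO1 and 282 and 291 in KO2, a log2 fold change of 1.28 ± 0.039 (adjusted p = 2.4e-43) and 1.04 ± 0.039 (1.12e-37). C78283 had 3.34 and 2.43 CPM, 9.68 and 7.55, and 24.1 and 22.9, a rise of 1.60 ± 0.16 and 3.04 ± 0.15. Platr3 had 3.39 and 2.17 CPM, 8.31 and 8.38, and 14.0 and 15.1, a rise of 1.60 ± 0.17 and 2.40 ± 0.16. In these 3 genes every KO library was above both control libraries, and the lines differed from each other in which was higher. 1700001L05Rik rose by 1.75 ± 0.086 and 1.75 ± 0.087, and Gm5922 by 1.87 ± 0.19 and 1.99 ± 0.19. Hotair, transcribed from the HoxC cluster, had no read in any Ythdc1 library. It had 1.15 and 0.809 CPM in Mettl3 control and 3.65 and 4.04 in KO1 (1.98 ± 0.30, adjusted p = 3.31e-08). In KO2 it had 1.44 and 1.97 CPM, and that call (0.80 ± 0.33, adjusted p = 0.0376) was lost without control replicate 2 or without KO2 replicate 2 (0.57 in both).

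Several members were called with a large change in 1 line and a small or no called change in the other. Gm32885 (chr15:97157029-97167244) had 1.05 and 1.23 CPM in control, 1.63 and 1.08 in KO1 and 18.7 and 19.6 in KO2. KO1 overlapped the control and KO2 did not, and the log2 fold change was 0.28 ± 0.28 (adjusted p = 0.452) in KO1 and 4.06 ± 0.19 (1.16e-31) in KO2. AU020206 rose by 0.56 ± 0.055 and 1.64 ± 0.053. 9830004L10Rik rose by 2.54 ± 0.17 and 2810429I04Rik by 2.36 ± 0.22 in KO2, and Halr1 fell by 1.75 ± 0.12 there, with 0.08 ± 0.10 in KO1. Miat rose by 1.67 ± 0.27 in KO1 and was at -0.69 ± 0.34 (adjusted p = 0.0789) in KO2. Mir17hg rose in KO1 (0.56 ± 0.054), where it had 99.2 and 93.2 CPM against 62.5 and 68.3 in control, and fell in KO2 (-0.73 ± 0.059), where it had 40.1 and 38.7. Gm53 did the reverse, at -0.79 ± 0.061 and 0.47 ± 0.057. The difference between the lines was not tested for these genes.

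**Figure D5:**
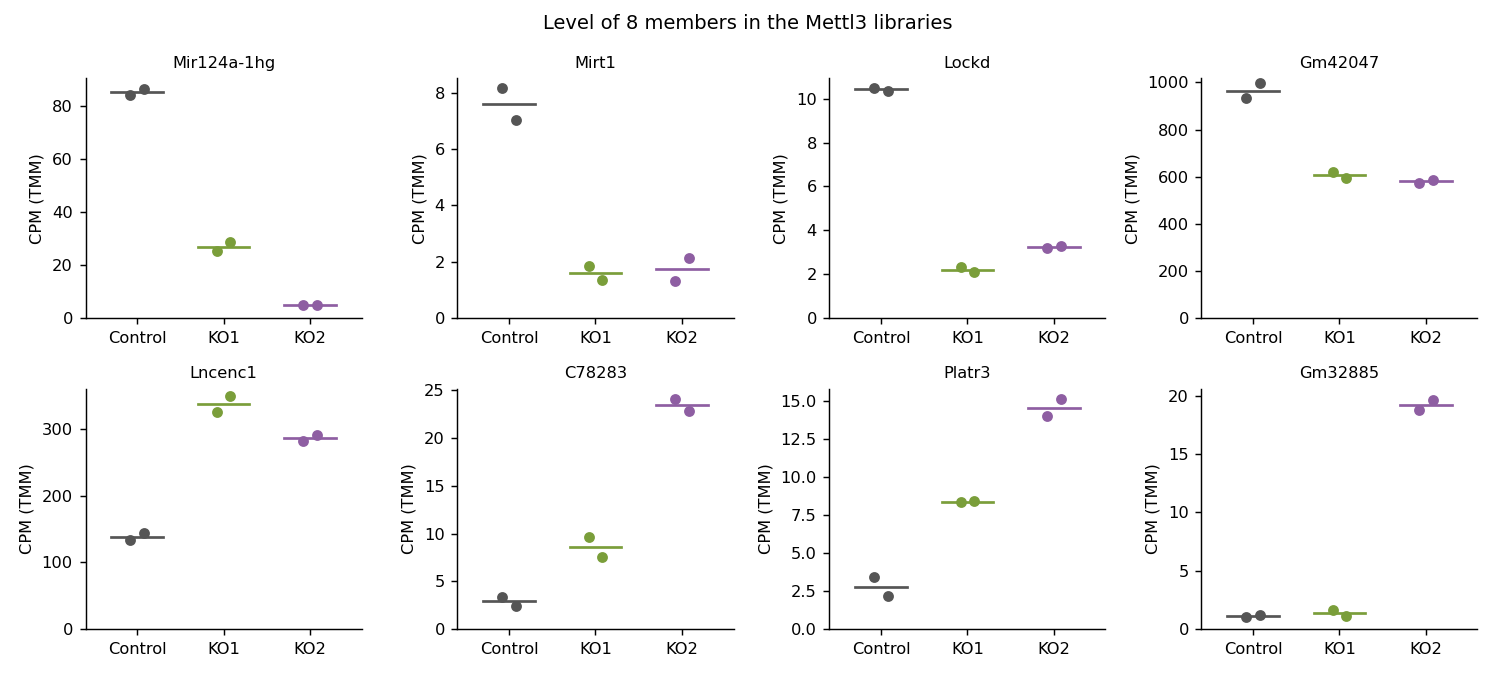
Level of 8 lincRNA genes in CPM (TMM-scaled, y axis from 0) in the libraries labelled Mettl3 Control, KO1 and KO2 (1 point for each library, with the mean as a line). The top row falls in both lines, as Mir124a-1hg from 84.0 and 86.1 to 5.05 and 4.88 CPM in KO2, and the bottom row rises in at least 1 line, as Gm32885 to 18.7 and 19.6 CPM in KO2 alone.

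The Zfp-like members were higher in KO1 in 12 of 16 cases and lower in 1, with a median of 0.67. In KO2, 8 were higher and 1 lower (median 0.31). Gm20939 had 23.1 and 25.9 CPM in control, 49.7 and 49.9 in KO1 and 44.0 and 40.1 in KO2, a rise of 1.02 ± 0.072 and 0.78 ± 0.074. Gm40977 rose by 1.17 ± 0.11 and 1.01 ± 0.11, and Gm5165 by 0.86 ± 0.082 and 0.28 ± 0.086, the latter not called without control replicate 1 (0.23) nor in a test against 1.2-fold. Every KO1 and KO2 library of Gm20939 and Gm40977 was above both control libraries. BC002059 was at 0.27 ± 0.084 in KO1, not called without control replicate 1 (0.17) or KO1 replicate 1 (0.21), and at 0.01 ± 0.087 in KO2. Of 373 Zfp coding genes, 137 were higher and 76 lower in KO1, and 98 higher and 132 lower in KO2. Over all genes tested, 23.9% were higher and 22.2% lower in KO1, and 24.4% and 26.4% in KO2.

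Gm42047, which is on chromosome 8, had 932 and 995 CPM in control, 619 and 593 in KO1 and 572 and 587 in KO2, below both control libraries in every case. Its change was -0.67 ± 0.031 and -0.73 ± 0.031, beside -0.51 and -0.44 for the median coding gene of that chromosome. Its near copy Gm47761 was at -1.42 ± 0.18 and -1.70 ± 0.19, and Gm43549 at -0.90 ± 0.15 and -0.92 ± 0.15. Members on chromosome 8 had 1 higher and 19 lower of 61 in KO1, and 4 higher and 16 lower in KO2. On chromosome 6 there were 3 higher and 18 lower of 43 in KO2. All genes tested had 23.9% higher and 22.2% lower in KO1, and 24.4% and 26.4% in KO2.

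The pluripotency-associated Platr genes did not move as a block. At 0 h in cKO, Platr15 and Platr28 rose and Platr10 fell. Platr4 (0.50 ± 0.14) and Platr20 (0.47 ± 0.18) were also called higher. Both calls were lost with spike-ins (0.13 and 0.11), that of Platr4 also without cKO replicate 1 (0.32) and that of Platr20 also in most other fits, among them those without control replicate 2 (0.31) or cKO replicate 2 (0.23). After 6 h in control cells 7 of the 18 Platr members were lower and 5 higher, beside 31.7% and 33.1% of all genes tested. The 18 include Platr19 and Platr23, which were too weakly read for this test. Their highest values in any Ythdc1 library were 0.3389 and 0.6115 CPM. Platr4 fell by 1.91 ± 0.17, Platr22 by 1.91 ± 0.48 and Platr6 by 1.33 ± 0.40, while Platr15 rose by 3.96 and Platr5 by 1.78 ± 0.34. Platr11 (0.72) and Platr26 (0.71) were higher and turned to -0.19 and -0.21 with spike-ins. Without 1 library, 6 of the 12 calls were lost: Platr11 without control replicate 2 at 0 h (0.35) or control replicate 1 at 6 h (0.49), Platr26 and Platr3 without control replicate 1 at 0 h (0.58 and -0.17), Platr7 without control replicate 2 at 0 h (-0.75), Platr27 without control replicate 1 at 0 h (-0.56) or at 6 h (-0.54), and Platr13 without control replicate 1 at 6 h (1.00). In the Mettl3 lines Platr3, Platr7 (0.88 ± 0.21 and 1.03 ± 0.21) and Platr27 (1.19 ± 0.15 and 1.02 ± 0.15) rose in both, and Platr20 fell in both (-0.81 ± 0.14 and -0.78 ± 0.15), which with spike-ins was -0.21 and not called in KO2. Platr23 rose in KO1 (1.46 ± 0.23) and was at 0.34 ± 0.26 in KO2. In KO1 Platr13 (-1.99 ± 0.52) and Platr15 (-1.37 ± 0.27) fell and Platr11 rose (0.65 ± 0.16). Platr6 was lower in KO1 (-0.64 ± 0.22), a call lost without any 1 of the 4 libraries (-0.60 to -0.68) and with spike-ins (-0.45). In KO2 Platr4 (-0.26 ± 0.085) and Platr10 (-0.32 ± 0.074) were lower and turned to 0.30 and 0.24 with spike-ins, and the call of Platr4 was also lost without control replicate 2 (-0.17) or KO2 replicate 2 (-0.22). Platr1 was not called in any comparison, with values from -0.64 to 0.43.

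A gene that starts within 2000 bases of a coding gene's start and points away may share its promoter region, which was not tested. Of the 118 such members, 59 were tested in the time course, and 12 were higher and 0 lower in cKO at 0 h, beside 79 and 21 of all 509 members tested and 13.5% and 15.8% of all genes. Among 58 pairs in which the coding neighbour was tested as well, both were called the same way in 3, in opposite ways in 1, the member alone in 8 and the neighbour alone in 16. 5031425E22Rik and Kmt2e were 1 of the 3, at 0.57 and 0.62, and the rise of 5031425E22Rik was not called with spike-ins (0.20). 6030443J06Rik, 3 bases from Orc5, was at 1.18 (adjusted p = 0.000511) while Orc5 was at -0.12 (0.272), an example chosen after its values were seen. At 6 h in control, both of a pair were called the same way in 8 and in opposite ways in 8. In the Mettl3 experiment, with 107 pairs, the counts were 10 and 6 in KO1, and 20 and 4 in KO2.

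GGACT, the core of the m6A motif, was counted on the transcribed strand of each member's longest transcript. In cKO at 0 h, 8 members were higher and 2 lower of the 118 without the letters, 41 and 11 of 229 with fewer than 1.5 per kb, and 30 and 8 of 162 with at least 1.5 per kb. The medians were 0.11, 0.15 and 0.38. The first class had 6.78% higher, the second 17.9% and the third 18.5%, beside 13.5% of all genes. In KO1 the counts were 32 higher and 32 lower of 221, 39 and 80 of 385, and 33 and 52 of 271, and in KO2 47 and 43, 66 and 80, and 47 and 56. The share lower was 14.5%, 20.8% and 19.2% in KO1 (22.2% of all genes) and 19.5%, 20.8% and 20.7% in KO2 (26.4%). A GGACT is not a measured m6A site, and the 3 classes were not tested against each other. Transcript length and read depth bear on whether the letters occur and whether a gene is called. They were not compared between the classes, and their part in these shares was not tested.

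The genes that act on nuclear lincRNAs were read from 3 lists beside the members. Of 26 nuclear RNA decay genes (exosome, NEXT, PAXT and their helpers), 1 was higher and 4 lower in cKO at 0 h, where Exosc5, an exosome core subunit, fell by 0.69 ± 0.082. In KO1 13 were higher and 7 lower and in KO2 6 and 11, and Zc3h18, which links the cap-binding complex to the exosome, fell by 0.70 ± 0.040 and 0.48 ± 0.040. Neither this fall nor the other list values were set against the whole-chromosome shifts of KO1 and KO2 given above. Of 14 Integrator genes, whose complex ends short noncoding transcripts, 1 was higher and 3 lower in cKO at 0 h, 8 and 2 in KO1, and 2 and 10 in KO2. In the difference at 6 h, 4 decay genes were higher and 6 lower, and Zc3h18 was at -0.71 ± 0.10. Of 18 genes of the m6A machinery, 4 were higher and 5 lower in cKO at 0 h, 9 and 2 in KO1, and 4 and 10 in KO2. Of all genes tested, 13.5% were higher and 15.8% lower in cKO at 0 h, 23.9% and 22.2% in KO1, and 24.4% and 26.4% in KO2. In the difference at 6 h these shares were 9.77% and 9.35%. Coding genes with a mean of at least 50 reads were called more often, as given above, and the lists were not tested as sets.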

How the data were processed

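Nuclear, ribosome-depleted RNA was sequenced in 18 libraries. The deposited values are read counts per gene, with ERCC spike-ins, made by the authors with CASAVA, Trimmomatic 0.38, HISAT2 2.1.0 and HTSeq on mm10, per the submitters' processing notes. For the strand setting and annotation release of the counting: not given in the sources used here. Of the reads in the table's gene, spike-in, no-feature and ambiguous rows, 18.024 to 53.541% fell on no gene, and the rows that name no gene were left out. GENCODE M21 held 54409 of the 54446 gene IDs, and 998 of the 1013 members in the same version.

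Counts were fitted in edgeR 4.0.16 (R 4.3.3; filterByExpr, TMM, robust quasi-likelihood), with 1 fit of the 12 Ythdc1 and 1 of the 6 Mettl3 libraries and p-values adjusted over all genes tested. The fitting code was also run on simulated counts in which every gene had the same spread, unlike these data. No result here rests on that run. The labels do not say what a replicate number shares, so no block was used. Deviations from the group mean correlated between same-numbered libraries at -0.0127 to 0.186 (Ythdc1) and -0.0416 to 0.00439 (Mettl3). Alternatives were other scalings, filters and tests (DESeq2 1.42.0), a block, a joint fit and each library left out. Sequences were compared with blastn 2.17.0.

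Members and lists were chosen with earlier results of these data known. Named genes are 82 members: known lincRNA names, Platr genes and Mir hosts, the 8 largest called rises and falls in cKO at 0 h, control at 6 h, KO1 and KO2, and up to 6 each way for the difference at 6 h. The largest changes had a mean of at least 50 counts and no exon overlap. Those of cKO at 0 h, control at 6 h, KO1 and KO2 also had no overlap between the libraries of the groups compared.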

Additional observations from a re-analysis of the deposited data

Results flagged for a closer look

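The change over 6 h of actinomycin D differed between cKO and control, by the test of the difference itself (cKO change minus control change, edgeR adjusted p below 0.05), in 23 of the members named by the rule or matching a Zfp transcript. It was positive, a smaller loss or larger rise in cKO, for the Zfp-like members Gm20939 (3.18), Gm5165 (2.56), Gm40977 (1.61), BC002059 (1.23) and Gm46430 (0.53). It was also positive for Gm4349 (1.37), Halr1 (1.31), Platr27 (1.17), Platr3 (1.03), C78283 (0.77), Gm32885 (0.71), Lncenc1 (0.52), Platr10 (0.49) and Gm42047 (0.43). Of these, Gm4349 was 0.91 and not called without control replicate 2 at 6 h, and Gm42047 was 0.35 and not called without cKO replicate 2 at 6 h. Halr1 was 1.15 without that library and Platr10 0.28 without control replicate 2 at 6 h, neither called.

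The difference was negative for Gm46378 (-4.39), Gm43597 (-1.39), Platr15 (-1.30), Gm13067 (-1.12), Lncpint (-1.11), Gm9801 (-0.96), 5031425E22Rik (-0.80), Gm53 (-0.56) and AU020206 (-0.29). Gm13067 was -0.77 and not called without control replicate 2 at 6 h, Gm43597 was -1.05 without control replicate 2 at 0 h, Gm9801 was -0.43 without control replicate 1 at 6 h, and AU020206 was -0.14 with library size alone.

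Called changes of opposite sign in the Mettl3 lines, with both libraries of each line on its side of the control, were found for Mir17hg (0.56 in KO1 and -0.73 in KO2) and Gm53 (-0.79 in KO1 and 0.47 in KO2). The difference between the lines was not tested, and the lines share their control libraries.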

How the results depend on the processing

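The counts of called members were recomputed under each alternative, and the pairs below are higher and lower counts. Counts within 1.5 times the reported one are not listed. With a limit of 50 reads in 2 libraries there were 49 and 12 for cKO at 0 h, 17 and 94 for control at 3 h, 24 and 101 for control at 6 h, 21 and 89 for cKO at 3 h, 24 and 96 for cKO at 6 h, 67 and 95 for KO1, and 92 and 101 for KO2, since fewer genes were tested. DESeq2's Wald test gave 51 and 11 for cKO at 0 h, 15 and 9 for the difference at 6 h, 13 higher for control at 3 h, 30 for control at 6 h, 23 and 25 for cKO at 3 and 6 h, and 103 and 104 lower for KO1 and KO2. Spike-in scaling gave 45 and 75 for cKO at 0 h, 5 higher for control at 3 h, 12 and 310 for control at 6 h, 298 and 28 for cKO at 3 h, 3 and 318 for cKO at 6 h, and 332 and 68 for KO2. Without a filter the lower count of the difference was 11, and in a test against 1.2-fold it was 9 and that of cKO at 0 h 10. Without members on chromosomes whose median coding gene lay more than 0.15 from 0, there were 113 lower for control at 3 h, 21 and 75 for control at 6 h, 118 lower for cKO at 6 h and 116 lower for KO2, as fewer members remained. Leaving out each library in turn gave 47 to 93 higher and 5 to 24 lower for cKO at 0 h, 16 to 39 and 133 to 193 for control at 3 h, 32 to 56 and 161 to 193 for control at 6 h, 30 to 53 and 141 to 202 for cKO at 3 h, 23 to 47 and 127 to 202 for cKO at 6 h, 20 to 29 and 9 to 19 for the difference, 81 to 102 and 117 to 149 for KO1, and 116 to 170 and 124 to 183 for KO2. In those fits the lone library of a group is assumed to vary like the others. The replicate block, whose numbers share only a name across groups, gave 76 and 21 for cKO at 0 h, 49 and 182 for control at 6 h, 27 and 18 for the difference, 100 and 158 for KO1 and 156 and 172 for KO2. Of 403 calls of the 82 named and the 17 Zfp-like members, 240 kept their call and direction in all alternatives and 290 in all fits without 1 library. Spike-in scaling reversed 48 of them, and the scaling itself moves the median of all genes as stated in the results. For cKO at 3 h these were 1110002J07Rik 1.14, 1700001L05Rik 1.37, 4632415L05Rik 0.31, 5031425E22Rik 0.41, AC160336.1 0.38, BC002059 1.34, C78283 1.32, E130202H07Rik 1.03, EU599041 1.05, Epb41l4aos 0.97, Gm15892 0.57, Gm26945 0.38, Gm36445 0.35, Gm40977 1.13, Gm42047 1.35, Gm47469 0.72, Gm5165 0.71, Gm53 0.73, Gm6712 0.79, Gm9801 1.11, Lncenc1 1.58, Lncpint 1.01, Platr10 1.52, Platr22 0.28, Platr4 0.32, Pvt1 0.67 and Trp53cor1 0.080. For control at 6 h they were 9330104G04Rik -0.17, AU020206 -0.77, Gm19705 -0.48, Gm40040 -0.34, Gm43597 -0.24, Gm46332 -0.016, Platr11 -0.19 and Platr26 -0.21, and for control at 3 h Gm19705 -0.11. For cKO at 6 h they were Gm47761 -0.085, Halr1 -0.33, Platr26 -0.17, Platr27 -0.39 and Platr3 -0.43, and for KO2 2900097C17Rik 0.39, Gm40040 0.022, Gm45250 0.046, Gm9801 0.039, Platr10 0.24, Platr4 0.30 and Pvt1 0.31. Scaling by library size alone turned AU020206 to -0.049 in control at 6 h. Leaving out both cKO libraries at 3 h, or the reads of Gm42418 and Gm26917, were alternatives chosen after seeing the data, and every count stayed within 1.5 times under both. With 2 libraries a group and most members under 50 reads, small changes of weakly expressed members were not detectable at this depth.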
